A study of Mus musculus with 4 samples.

Results

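The genes described here are 41 genes of the actin cytoskeleton, the intermediate filament gene Vim and the nuclear lamina, taken from a list of gene symbols. All 41 were found among the 21025 genes of each file, 39 by symbol and 2 (Myl6 and Myl12a) by RefSeq accession. The RNA came from sorted liver natural killer (NK) cells of C57BL/6 mice, with 2 libraries per subset. The sort kept NK1.1+ NKp46+ cells without T-cell receptor beta in both subsets. The TRAIL+ subset carried the death ligand TRAIL and lacked CD49b, and the CD49b+ subset carried CD49b, an integrin subunit, and lacked TRAIL. No source used here gives the age or number of the mice, or whether the replicates of a subset came from different mice. A p-value therefore reflects the spread among these 4 libraries alone, and part or all of that spread may be technical.

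Actin monomers assemble into filaments that shape the cell cortex, and nucleators, crosslinkers, severing proteins and myosins decide where filaments form and how they bear force. In NK cells the filament network is remodelled at the contact with a target cell, where adhesion receptors are held through talin and vinculin and lytic granules pass the cortex. Vimentin forms the main intermediate filament of lymphocytes, and A-type and B-type lamins line the nuclear envelope and set its stiffness.

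Levels are RPKM, reads per kilobase of gene scaled to the reads of the library, which allows comparison between genes. Long and short genes shifted differently between replicates, as given below, so comparisons of genes of unlike length are approximate. Differences are TRAIL+ minus CD49b+ on the log2(RPKM + 1) scale ± SE from limma fitted to all 10047 genes with at least 1 RPKM in at least 2 of the 4 libraries, which understates the change of low genes. A gene past a Benjamini-Hochberg adjusted p of 0.05 is said to be higher or lower, or called. The library totals behind the RPKM ran from 3786497 to 4232967, so that a gene 2000 bases long had 7.57 to 8.47 reads for each 1 RPKM. Tnfsf10, which encodes TRAIL, was 28.0-fold higher in the TRAIL+ libraries, and Itga2, which encodes CD49b, was 13.1-fold lower, both being markers of the sort. Of 4 listed T-cell marker genes, Cd3e, Cd4 and Cd8a were higher in TRAIL+ cells (summed level of the 4 genes 36.5 and 64.6 RPKM against 3.98 and 4.08). The summed level of 7 Kupffer cell and monocyte markers was higher in the replicate 1 libraries, 94.2 RPKM (TRAIL+) and 135 RPKM (CD49b+), than in the replicate 2 libraries, 15.2 and 14.9 RPKM. Most of it was Lyz2 (81.9 and 122 against 9.21 and 8.87 RPKM). Clec4f had 0.918 and 1.32 RPKM for TRAIL+ against 0.196 and 0 for CD49b+, on 21 reads against 2. Cd68 went the other way, at 5.09 and 3.13 RPKM for TRAIL+ against 7.69 and 5.77 for CD49b+. The subsets overlapped for Csf1r, Adgre1, Cd14 and Lyz2, and Marco was at 0 throughout. Sums were also higher in replicate 1 for 5 hepatocyte markers (18.4 and 17.8 against 3.64 and 1.28 RPKM), 4 neutrophil markers (19.8 and 20.8 against 3.90 and 0.644) and 6 platelet and erythroid markers (103 and 111 against 35.7 and 5.81). Most of the last sum was the erythroid gene Hbb-b1 (92.3 and 102 against 31.7 and 5.22 RPKM). The platelet genes Pf4, Ppbp, Itga2b and Gp9 had at most 1.66 RPKM, and only Pf4 was higher in replicate 1 of both subsets. The part of any of these cell types in the results below was not tested. The 6 stellate cell and fibroblast markers, from cells rich in vimentin and actin-binding proteins, summed to at most 0.378 RPKM in any library, and Col3a1 and Dcn were at 0.

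TRAIL+ cells held less Lmna, Flna, Vcl, Vim, Tpm4 and Zyx mRNA than CD49b+ cells, and more Actn1, Gsn, Myo6 and Actn2. Of the 40 members tested, 4 were higher and 6 lower, and 30 did not pass the test. Among all genes tested 4.76% were higher and 3.86% lower, 8.62% in all. The list was drawn up with earlier results of these data known, so the members' share beside that of all genes is a description. The median difference of the tested members was -0.26, against 0.00 for all genes tested. The levels of the subsets did not overlap in 24 of the 40 members, 7 with TRAIL+ above and 17 with CD49b+ above, against 46.8% of all genes tested. Pls3 was below the minimum of 1 RPKM in 2 libraries. Actn1 and Actn2 met it only through the TRAIL+ libraries and Lmna only through the CD49b+ libraries, so these 3 genes had to differ to be tested, and they are included in the counts above. In sorted pools, fewer cells with a transcript and less transcript per cell cannot be told apart.

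**Figure D1:**
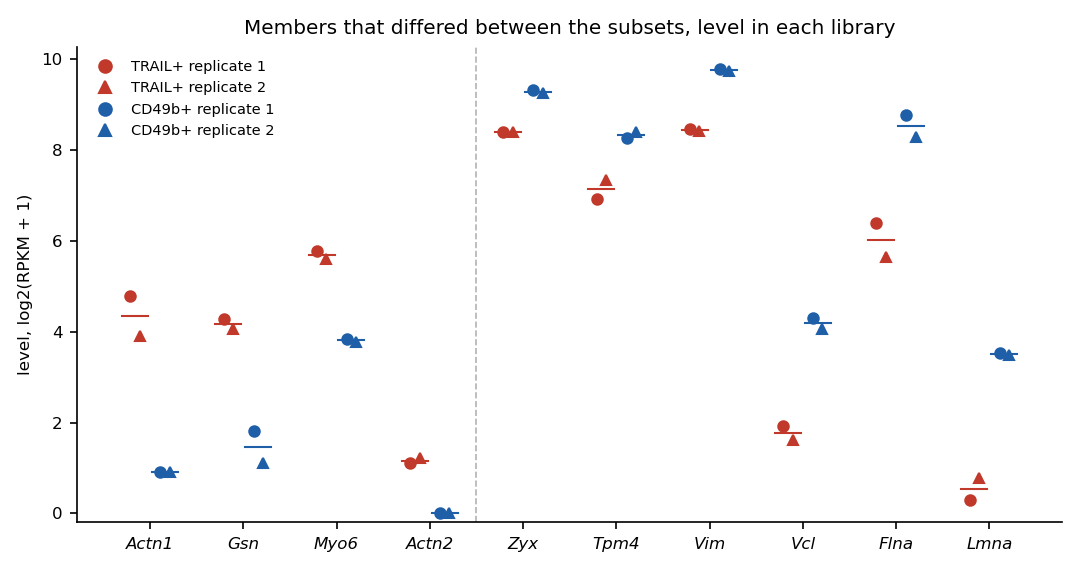
Level of the 10 called members in each library, on the log2(RPKM + 1) scale, with a bar at the mean of each subset; genes higher in TRAIL+ cells stand left of the dashed line. The subsets are apart for every gene shown, from Actn1 (difference 3.43) on the left to Lmna (difference -2.98) on the right.

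Actb and Pfn1 were the most abundant members in every library, and neither they nor Actg1 were called. Beta-actin (Actb) stood at 2805 and 3370 RPKM in the TRAIL+ libraries and at 3826 and 3716 RPKM in the CD49b+ libraries, a difference of -0.29 ± 0.31 (95% interval -1.06 to 0.47). Gamma-actin (Actg1) was far less abundant, at 208 and 287 RPKM against 306 and 345. For both actins every TRAIL+ library lay below every CD49b+ library, by less than the test could separate from the replicate spread (limma adjusted p = 0.726 and 0.416). Actb made up 93.1% and 92.2% of the summed RPKM of both actins in TRAIL+ cells and 92.6% and 91.5% in CD49b+ cells, so the subset means of this share lay 0.574 percentage points apart. Profilin (Pfn1), which loads monomers onto growing filaments, stood at 3262 and 4425 against 3895 and 4227 RPKM, and the ranges overlapped. Pfn1 and Actb ranked between 6 and 13 among all genes in each library. Actins, Pfn1 and Cfl1 have close copies and pseudogenes in the genome, so reads may be shared among copies.

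The alpha-actinins divided by paralog. These proteins crosslink filaments as antiparallel dimers, and Actn1 and Actn4 are the forms found outside muscle. Actn1 stood at 26.5 and 13.9 RPKM in the TRAIL+ libraries and at 0.880 and 0.879 RPKM in the CD49b+ libraries, 23.0-fold by means (difference 3.43 ± 0.33, limma adjusted p = 0.00369). Its CD49b+ level rested on 27 reads, and the ratio of reads of 23.2 had an exact 95% counting interval of 15.8 to 35.6. Actn4 stood at 91.1 and 45.6 against 74.9 and 57.8 RPKM, so that the TRAIL+ libraries lay on both sides of the CD49b+ ones (difference -0.03 ± 0.35, 95% interval -0.90 to 0.85). Actn1 therefore made up 22.3% and 22.9% of alpha-actinin RPKM in TRAIL+ cells and 1.16% and 1.5% in CD49b+ cells. Its share was alike in both TRAIL+ libraries although the level of each gene differed between them. Actn2, best known from the Z-disc of striated muscle, had 14 and 15 reads (1.14 and 1.32 RPKM) in TRAIL+ cells, and none of its reads was seen in CD49b+ cells. With 3 reads put in for the CD49b+ count of 0, the ratio of Actn2 reads was 10.05 (difference 1.16 ± 0.24). This ratio takes the 29 TRAIL+ reads as exact, so it is not a lower limit. The Actn2 call (limma adjusted p = 0.0430, 0.0106 to 0.159 over 10 alternatives) was lost without TRAIL+ replicate 2 (0.0523), without CD49b+ replicate 1 (0.159), without CD49b+ replicate 2 (0.115) and with quantile normalization (0.0521).

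Filamin A (Flna), a large crosslinker that also ties integrin tails to filaments, went the other way. It stood at 83.6 and 48.7 RPKM in TRAIL+ cells and at 433 and 311 RPKM in CD49b+ cells, 5.63-fold lower (difference -2.51 ± 0.31, limma adjusted p = 0.00837). Flna stood far above Actn4 in both CD49b+ libraries, whereas in TRAIL+ cells the levels of these crosslinkers lay side by side. The bundling protein L-plastin (Lcp1) was the most abundant crosslinker or bundler in 3 of the 4 libraries, at 1020 and 811 against 777 and 696 RPKM. It was not called (difference 0.31 ± 0.23), and neither was the LIM and SH3 protein gene Lasp1, at 324 and 298 against 265 and 257 RPKM. T-plastin (Pls3), the form of non-hematopoietic cells, had 7 reads over the TRAIL+ libraries and 21 over the CD49b+ libraries and made up at most 0.127% of plastin RPKM. Tagln2, an actin-bundling calponin family gene, stood at 354 and 427 against 676 and 765 RPKM, above Lcp1 in CD49b+ replicate 2. Its difference of -0.89 ± 0.21 missed the threshold (limma adjusted p = 0.0663), and it passed in 5 of 10 alternatives, with adjusted p from 0.00222 to 0.659. The scaffold gene Iqgap1 had 131 and 57.9 against 189 and 129 RPKM, and its ranges overlapped. The Iqgap1 difference was -0.83 ± 0.41, with -1.41 without TRAIL+ replicate 1 and -0.25 without TRAIL+ replicate 2. With a replicate block, for which the labels give no source of pairing, Iqgap1 was called lower (limma adjusted p = 0.00874).

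The genes that start and extend filaments were not called, 0 of 6, where 8.62% of all genes tested were called, so the count is near that share. Wiskott-Aldrich protein (Was), which switches on the Arp2/3 complex and whose loss causes immune deficiency, stood at 131 and 114 against 125 and 103 RPKM. Its binding partner Wipf1 stood at 217 and 165 against 186 and 174 RPKM. The intervals of the differences were -0.35 to 0.57 for Was and -0.43 to 0.57 for Wipf1, so changes inside them would have been missed. The Arp2/3 subunit genes Arpc1b (209 and 180 against 289 and 226 RPKM) and Arpc2 (381 and 434 against 472 and 484 RPKM) each had both TRAIL+ libraries below both CD49b+ ones, with differences of -0.40 and -0.23. The formin gene Diap1 (Diaph1) stood at 128 and 72.4 against 139 and 108 RPKM and overlapped.

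Among the genes that sever, cap or recycle filaments, gelsolin (Gsn), which cuts filaments in response to calcium and then caps them, stood apart. It had 18.3 and 15.6 RPKM in TRAIL+ cells and 2.53 and 1.17 RPKM in CD49b+ cells, a 9.16-fold difference of means (2.69 ± 0.29, limma adjusted p = 0.00533). The fold was 14.5 without CD49b+ replicate 1 and 6.69 without CD49b+ replicate 2. Behind the CD49b+ level lay 28 reads in replicate 1 and 12 in replicate 2. Capg, a capping protein of the same family that does not sever, pointed the opposite way at 19.9 and 23.9 against 32.1 and 36.1 RPKM, without passing the test (difference -0.62 ± 0.18, limma adjusted p = 0.115). Capg exceeded Gsn in every library, and by much more in CD49b+ than in TRAIL+ cells. Capg was called lower with a gene length correction (limma adjusted p = 0.0203) and with a replicate block (0.0153). It was not called in any other alternative that kept all 4 libraries. The Capg difference was -0.75 without TRAIL+ replicate 2 and -0.49 without TRAIL+ replicate 1. Cofilin (Cfl1), which disassembles old filaments, stood at 1100 and 1392 against 1362 and 1493 RPKM. Coronin-1A (Coro1a), needed for cortical actin in lymphocytes, stood at 1150 and 1343 against 1217 and 1211 RPKM, a difference of 0.03 ± 0.23 with a 95% interval of -0.55 to 0.62. The sign of the Coro1a difference changed with quantile normalization and with a gene length correction.

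Tropomyosins lie along the filament and govern which myosins and severing proteins reach it. Tpm4 stood at 121 and 161 RPKM in TRAIL+ cells and at 306 and 335 RPKM in CD49b+ cells, 2.28-fold lower (difference -1.19 ± 0.21, limma adjusted p = 0.0249). The Tpm4 adjusted p ran from 0.000536 to 0.245 over 10 alternatives, and the call was lost without CD49b+ replicate 1 (0.184) and without CD49b+ replicate 2 (0.245). Tpm3 stood at 233 and 250 against 353 and 341 RPKM and did not pass (difference -0.52 ± 0.17, limma adjusted p = 0.157). Tpm4 made up 34.1% and 39.2% of the RPKM of both genes in TRAIL+ cells and 46.4% and 49.6% in CD49b+ cells.

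Of 7 myosin genes, Myo6 alone passed the test, where 8.62% of all genes tested were called, so the count is near that share. Myosin VI is the motor that walks toward the pointed end of filaments and works in endocytosis and vesicle traffic. Myo6 stood at 53.7 and 47.2 RPKM in TRAIL+ cells and at 13.3 and 12.7 RPKM in CD49b+ cells, 3.87-fold higher (difference 1.87 ± 0.16, limma adjusted p = 0.00292). The heavy chain of non-muscle myosin IIA (Myh9), the motor of cortical contraction, could not be placed: it stood at 201 and 37.1 RPKM in TRAIL+ cells and at 195 and 73.5 RPKM in CD49b+ cells. The gap between libraries of the same subset was larger than the gap between the subset means, and the 95% interval of the difference ran from -2.59 to 1.67. Its light chains were steadier. Myl6 stood at 246 and 361 against 286 and 283 RPKM, and the regulatory chain gene Myl12a at 276 and 356 against 391 and 414 RPKM, where reads may be shared with its near copy Myl12b. The class I myosins Myo1f (173 and 113 against 152 and 120 RPKM) and Myo1g (79.4 and 63.5 against 96.4 and 84.3 RPKM), which link membrane to actin in leukocytes, were not called. Myo9b, an unconventional myosin, stood at 36.7 and 12.1 against 24.0 and 13.2 RPKM and showed the same split between replicates as Myh9.

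**Figure D2:**
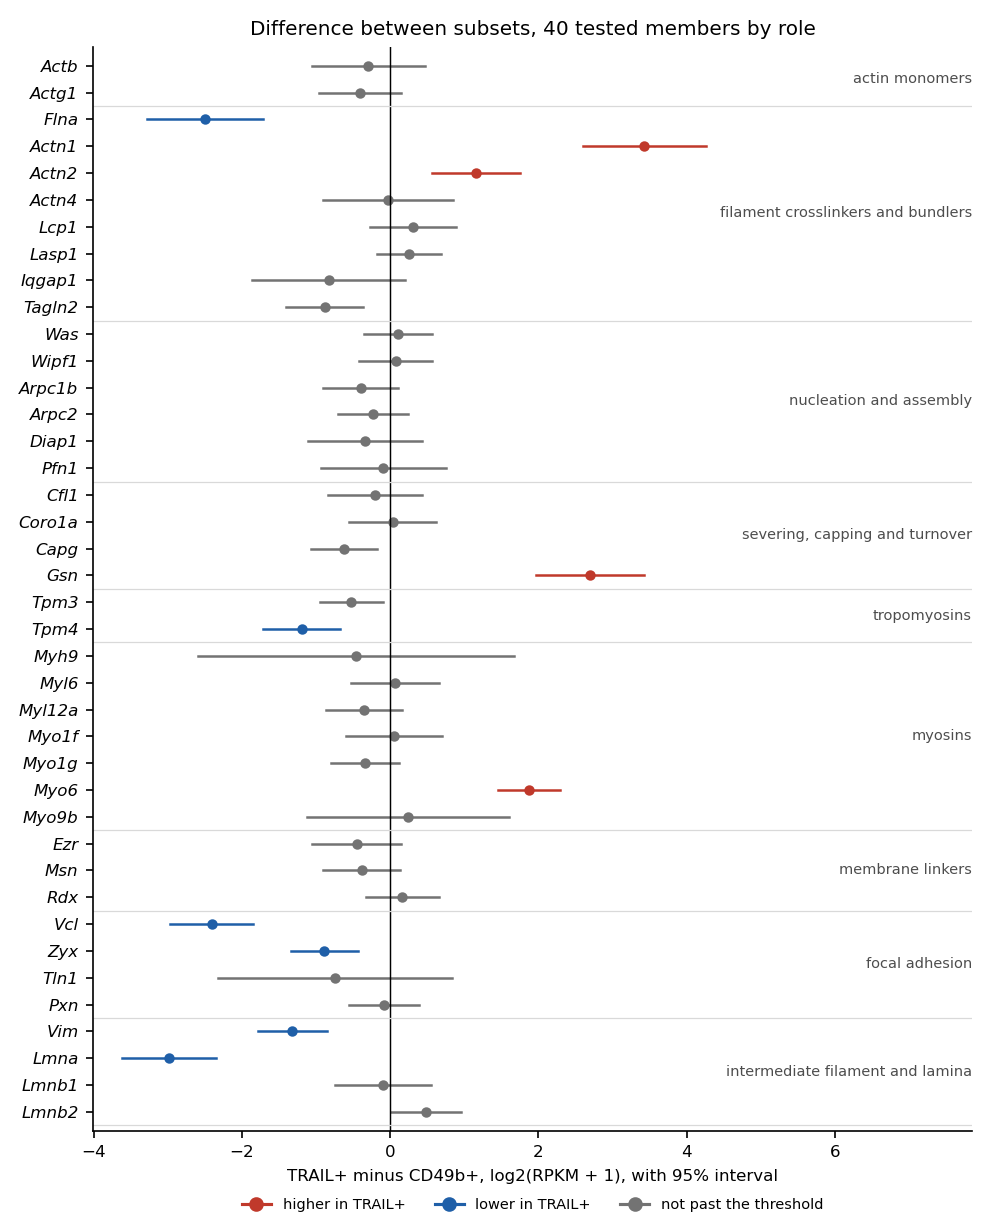
Difference between the subsets (TRAIL+ minus CD49b+, log2(RPKM + 1) scale) with its 95% interval for the 40 tested members, grouped by role. The 4 higher and 6 lower members stand away from 0, and the widest interval is that of Myh9 (-2.59 to 1.67). The intervals are not adjusted for the number of genes, and those of Tagln2, Capg, Tpm3 and Lmnb2, which were not called, also leave out 0.

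Ezrin, radixin and moesin tie the plasma membrane to the cortex, and none of their genes was called. Moesin (Msn), the main form in lymphocytes, stood at 509 and 416 against 630 and 575 RPKM, and ezrin (Ezr) at 158 and 110 against 203 and 161 RPKM. Radixin (Rdx) was the least abundant, at 52.7 and 40.6 against 44.2 and 38.3 RPKM. Moesin took 70.7% and 73.4% of the family's RPKM in TRAIL+ cells and 71.8% and 74.2% in CD49b+ cells. Rdx took 7.32% and 7.17% against 5.04% and 4.95%, shares that differed little between replicates.

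Of the focal adhesion genes, Vcl and Zyx were lower in TRAIL+ cells. Vinculin (Vcl), which strengthens the link from talin to actin under load, stood at 2.81 and 2.06 RPKM in TRAIL+ cells and at 18.8 and 15.6 RPKM in CD49b+ cells, 7.08-fold lower (difference -2.41 ± 0.22, limma adjusted p = 0.00322). Zyxin (Zyx), a LIM protein recruited to strained filaments, stood at 337 and 335 against 639 and 608 RPKM, 1.86-fold lower (difference -0.89 ± 0.18, limma adjusted p = 0.0427). The Zyx adjusted p ran from 0.00291 to 0.635 over 10 alternatives. Its call was lost without CD49b+ replicate 1 (0.635), without CD49b+ replicate 2 (0.507) and with no filter on low values (0.0725), while the fold stayed between 1.81 and 1.90 when any 1 library was left out. Talin (Tln1), the activator of integrins to which vinculin binds, stood at 190 and 55.5 against 248 and 121 RPKM. In the main fit its replicates were too far apart for a call (95% interval -2.33 to 0.84). Its difference was -1.62 without TRAIL+ replicate 1 and 0.14 without TRAIL+ replicate 2. With a replicate block, which raised the calls over all genes to 1049 and 833, Tln1 was called lower (limma adjusted p = 0.0218). The labels give no source of pairing for such a block. Paxillin (Pxn), the adaptor of the same complexes, stood at 93.8 and 72.5 against 90.5 and 84.5 RPKM. Vcl transcripts were thus far rarer than those of Tln1, Zyx and Pxn in every library, in CD49b+ cells too.

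Several cytoskeletal genes are targets of serum response factor, which binds the CArG box, and its motif was looked for in RefSeq promoter windows (GRCm38.p6) from 250 bases before to 50 bases after each start site. Windows were found for 37 of the 41 members, 50 windows in all. An exact CArG box, whose pattern reads alike on both strands, lay in the windows of 3 members (Vcl, Actg1 and Myl6), 1 window each, and in 1.63% of all 32851 windows. The 250 bases before the start of these 3 are shown with the box in capitals, because 1 of them was lower in TRAIL+ cells and the others were not called. The Vcl window is chr14:20929148-20929397 on the plus strand, that of Actg1 is chr11:120348496-120348745 on the minus strand, and that of Myl6 is chr10:128493010-128493259 on the minus strand.
Vcl: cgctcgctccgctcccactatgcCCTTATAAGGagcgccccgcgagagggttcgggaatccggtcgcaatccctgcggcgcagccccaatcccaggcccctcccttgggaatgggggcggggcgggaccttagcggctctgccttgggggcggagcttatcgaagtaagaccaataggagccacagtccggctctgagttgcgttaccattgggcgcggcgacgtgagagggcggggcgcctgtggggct
Actg1: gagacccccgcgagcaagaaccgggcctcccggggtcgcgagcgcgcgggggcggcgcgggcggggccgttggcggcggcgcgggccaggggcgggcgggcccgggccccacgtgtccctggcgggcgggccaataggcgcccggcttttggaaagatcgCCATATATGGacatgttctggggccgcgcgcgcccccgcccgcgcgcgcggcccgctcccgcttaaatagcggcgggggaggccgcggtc
Myl6: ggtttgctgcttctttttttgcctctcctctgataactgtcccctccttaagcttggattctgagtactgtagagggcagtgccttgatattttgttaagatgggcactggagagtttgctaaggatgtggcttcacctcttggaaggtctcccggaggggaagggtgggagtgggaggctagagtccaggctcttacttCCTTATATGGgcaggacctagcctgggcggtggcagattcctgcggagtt
The box starts 227 bases before the start site in Vcl, 90 in Actg1 and 50 in Myl6. The windows of Flna, Vim, Tpm4, Zyx and Lmna held no exact match, which says only that these letters are not in these windows.

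Vim and Lmna, genes of the intermediate filament system, were lower in TRAIL+ cells, and both B-type lamin genes were not called. Vim stood at 350 and 341 RPKM in TRAIL+ cells and at 878 and 854 RPKM in CD49b+ cells, 2.50-fold lower (difference -1.32 ± 0.19, limma adjusted p = 0.0125). Replicates of Vim lay within a few percent of each other, yet the call was lost without CD49b+ replicate 1 (0.269) and without CD49b+ replicate 2 (0.232), with adjusted p from 0.000582 to 0.269 over 10 alternatives. Lmna, which encodes lamins A and C, had 3 and 9 reads in the TRAIL+ libraries and 149 and 135 in the CD49b+ libraries. These reads gave 0.221 and 0.712 RPKM against 10.5 and 10.3 RPKM (difference -2.98 ± 0.25, limma adjusted p = 0.00266). CD49b+ cells thus had 22.8 times the Lmna reads per library read (exact 95% counting interval 12.8 to 44.6). By means of RPKM the fold was 22.3, with 14.6 without TRAIL+ replicate 1 and 47.2 without TRAIL+ replicate 2.

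Lmnb1 stood at 42.5 and 27.0 against 40.05 and 33.0 RPKM, and Lmnb2 at 12.6 and 10.8 against 7.96 and 8.12 RPKM (difference 0.48 ± 0.19, limma adjusted p = 0.238). Lamin A/C transcripts made up 0.399% and 1.85% of the summed RPKM of the 3 lamin genes in TRAIL+ cells and 18.0% and 20.0% in CD49b+ cells. B-type lamins dominated in both subsets, and nearly all lamin mRNA of TRAIL+ cells was B-type.

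**Figure D3:**
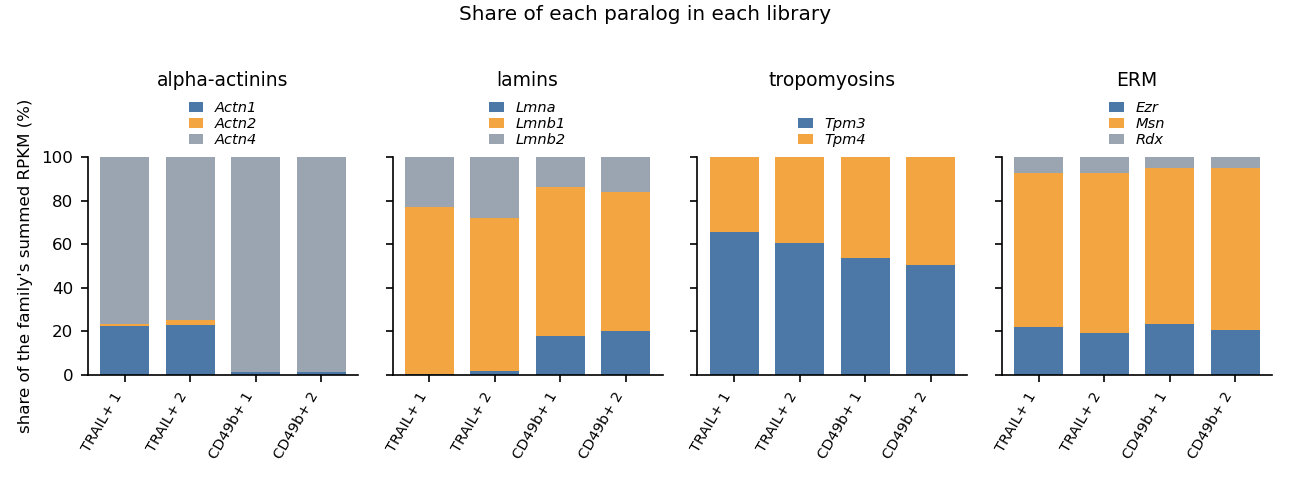
Share of each paralog in the summed RPKM of its family (percent) in each library. Actn1 takes 22.3% and 22.9% of the alpha-actinins in TRAIL+ cells and Lmna takes 18.0% and 20.0% of the lamins in CD49b+ cells, while moesin keeps 70.7% to 74.2% of the ezrin, radixin and moesin (ERM) family in all 4 libraries.

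Levels of the long members differed between replicates of the same subset. Among the 7 tested members of at least 5000 bases the median of replicate 1 minus replicate 2 was 1.16 on the log2(RPKM + 1) scale in TRAIL+ cells and 0.55 in CD49b+ cells. Among the 11 members under 2000 bases it was -0.26 and -0.04. Over all genes tested it was 0.42 and 0.14 for the 1713 genes of at least 5000 bases and -0.33 and -0.14 for the 3073 genes under 2000 bases. Myh9 had the largest replicate difference of the long members in both subsets, 2.40 and 1.39, and its TRAIL+ value was the largest of those 1713 genes. Tln1 followed with 1.76 and 1.03, then Myo9b with 1.53 and 0.81. Myo6, with 7900 bases, differed by 0.18 and 0.06, and Flna, with 8393 bases, by 0.77 and 0.48. What separates these long genes was not tested. After a correction for gene length the members called numbered 4 higher and 9 lower. Tagln2, Tpm3 and Capg were added (limma adjusted p = 0.00222, 0.0200 and 0.0203), and Myh9, Tln1 and Myo9b were still not called. Over all genes tested, the same correction raised the calls from 478 higher and 388 lower to 722 and 594.

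**Figure D4:**
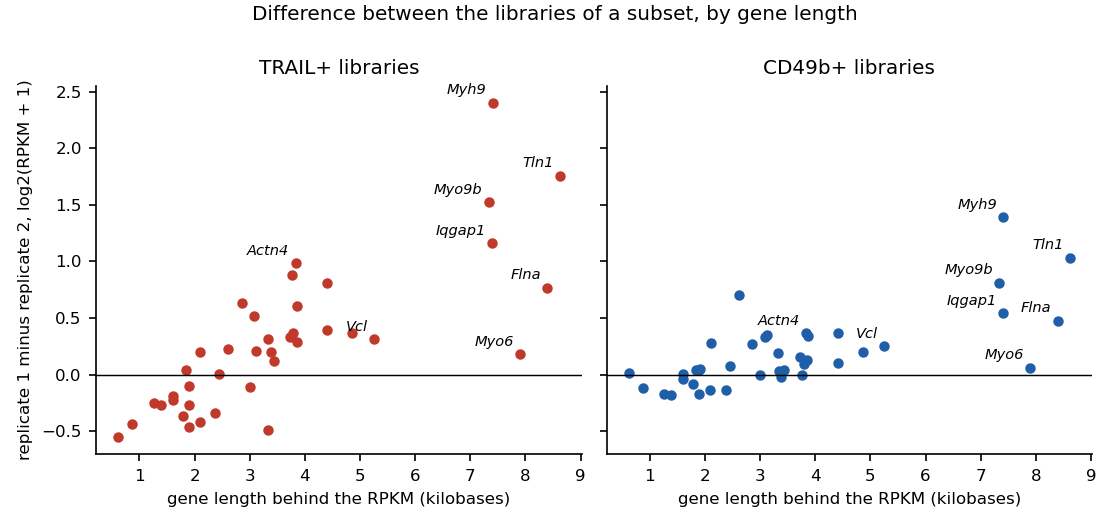
Replicate 1 minus replicate 2 on the log2(RPKM + 1) scale against the gene length behind the RPKM, in kilobases, for the 40 tested members in each subset. Myh9, Tln1 and Myo9b lie highest in both panels, and Myo6 lies near 0 at a like length.

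Reads of all 41 members came to 3.45% and 3.21% of the library total behind the RPKM in TRAIL+ cells and 4.39% and 3.95% in CD49b+ cells. Reads summed over all genes exceeded that total in every library (4228184 against 4071617 in TRAIL+ replicate 1). These values are therefore ratios to the total, not shares of the reads. Actb alone came to 0.532% and 0.639% of the total against 0.725% and 0.704%.

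A wider list of 156 other genes of actin control, adhesion and the nuclear envelope held 118 tested genes, of which 4 were higher and 5 lower in TRAIL+ cells, a share of 7.63% that lies near that of all genes. Their median difference was -0.08. Pdlim1, a PDZ and LIM adaptor that binds alpha-actinin, stood at 3.41 and 3.67 RPKM in TRAIL+ cells and at 49.5 and 58.5 RPKM in CD49b+ cells, 15.3-fold lower (difference -3.60 ± 0.18, limma adjusted p = 0.000681). Abi3, a subunit of the WAVE complex that drives Arp2/3, was 4.11-fold higher in TRAIL+ cells, at 41.7 and 41.4 against 9.14 and 11.1 RPKM (limma adjusted p = 0.00305).

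The LIM protein gene Fhl3 (4.18-fold), advillin (Avil, 5.01-fold), of the gelsolin family, and the Rac activator gene Vav3 (2.71-fold) were also higher. The small GTPase gene Rhoq (3.15-fold), destrin (Dstn, 2.98-fold), a relative of cofilin, and adducin 3 (Add3, 2.47-fold), which caps filaments at the membrane skeleton, were lower, as was the coronin gene Coro7 (2.31-fold), named after its value was seen. The calls of Dstn, Add3, Coro7 and Vav3 were lost without CD49b+ replicate 1 (limma adjusted p = 0.0987, 0.156, 0.179 and 0.169) and without CD49b+ replicate 2 (0.130, 0.0784, 0.104 and 0.128). Those of Avil and Rhoq were lost without CD49b+ replicate 2 (0.0950 and 0.0737), that of Fhl3 without CD49b+ replicate 1 (0.0919), and that of Avil also with no filter on low values (0.0629). By sublist, limma called 4 of 21 genes of the cofilin cycle, capping and severing, 2 of 21 small GTPase genes and their regulators, 2 of 13 other adhesion adaptors and 1 of 17 genes of the Arp2/3 and WAVE complexes. It called 0 of 12 formins and monomer binders, 0 of 12 other crosslinkers and tropomyosins, 0 of 10 other myosins and 0 of 12 nuclear envelope partners. With 8.62% of all genes called, none of these small counts is read as particular to its sublist.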

How the data were processed

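The authors deposited 1 file per library with RPKM values for 21025 genes, a unit per the file headers. The submitters' processing notes name TopHat 1.4.1 and the mm9 build. No source used here gives the counting tool, annotation or strand setting, so antisense and overlapping genes cannot be told apart. Low RPKM values move in whole steps, so library totals, gene lengths and reads were worked out from them, for 100% of 13681 genes above 0 (relative tolerance 1e-06). Reads of a gene in the text come from this step. The lengths of 35 of 41 members lay within 10% of the annotated one. That annotated length had served to choose among multiples of the length, so the agreement is not a separate check. The exact counting intervals of read ratios cover counting error only. The intervals of differences come from the limma fit and reflect the spread among the libraries.

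Differences were tested with limma 3.58.1 in R 4.3.3 (lmFit, eBayes with trend, 2 residual and 3.51 prior degrees of freedom), checked on simulated data. The simulated reads were drawn independently for each library, without a shift by gene length. That check therefore does not cover the replicate differences described above. The smallest exact permutation p is 0.333 here, so no such test was run. Alternatives were a pseudocount of 0.1, no filter, quantile normalization, a length correction, voom on the recovered reads, a replicate block and leaving out each library. Members and lists were chosen with earlier results of these data known. Every member is accounted for, and up to 2 called genes a direction are named per wider sublist. Syne1 matched several rows and is not analysed here.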

Additional observations from a re-analysis of the deposited data

How the results depend on the processing

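The 10 alternatives were run on every tested member. Actn1, Gsn, Myo6, Flna, Vcl and Lmna passed the test in each alternative that kept all 4 libraries, with limma adjusted p of at most 0.0241. Their differences kept their sign when any 1 library was left out. Actn1 and Lmna met the minimum level only through their higher subset. Outside the fit with no filter, these genes therefore had to differ to be tested. Members called lower numbered 3 without CD49b+ replicate 1 or 2 and 8 without either TRAIL+ library, against 6 with all libraries, and 12 with the replicate block. The block also gave 16 higher and 22 lower genes of the wider list and 1049 and 833 of all genes, and it added Tagln2, Tpm3, Capg, Ezr, Iqgap1 and Tln1 to the lower members. Same-numbered libraries deviated together (r = 0.56 across genes), but the labels give no source of pairing. The gene length correction gave 7 higher and 9 lower of the wider list and 722 and 594 of all genes. With a library left out, wider-list counts ran from 2 to 8 higher and 2 to 23 lower, and counts over all genes from 245 to 777 and 198 to 763. The lowest of these came without CD49b+ replicate 1 and the highest without TRAIL+ replicate 1, except that either CD49b+ library gave the lowest wider-list counts.

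No member was called in a fit that changed the sign of its difference. Coro1a was -0.036 with quantile normalization and -0.023 with the length correction, and Myl6 was -0.062 with the latter. With a library left out, differences ran from -0.52 to 0.46 for Actn4, -0.033 to 0.25 for Was, -0.13 to 0.27 for Wipf1, -0.75 to 0.060 for Diap1, -0.31 to 0.13 for Pfn1, -0.078 to 0.15 for Coro1a, -1.66 to 0.74 for Myh9, -0.21 to 0.34 for Myl6, -0.25 to 0.36 for Myo1f, -0.52 to 1.00 for Myo9b, -0.019 to 0.35 for Rdx, -1.62 to 0.14 for Tln1, -0.27 to 0.10 for Pxn and -0.42 to 0.22 for Lmnb1. The cause was not tested. Depth limits Lmna in TRAIL+ cells and Actn1, Actn2 and Gsn in CD49b+ cells, where 0 to 40 reads lay behind a level.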

Other observations

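Among the nuclear envelope partners of the lamins, Syne3, which encodes nesprin-3, a link from the outer nuclear membrane to plectin and intermediate filaments, had 9.16 and 2.14 RPKM in the TRAIL+ libraries and 57.8 and 28.1 RPKM in the CD49b+ libraries. Its difference of -2.87 ± 0.62 missed the threshold (limma adjusted p = 0.0504) and passed in 7 of 10 alternatives, with adjusted p from 2.73e-05 to 0.103. Sun1, an inner membrane protein that anchors nesprins, stood at 9.63 and 4.99 against 17.4 and 15.4 RPKM (adjusted p = 0.101), and Sun2 at 236 and 196 against 248 and 221 RPKM. The lamin B receptor gene Lbr stood at 122 and 137 against 132 and 139 RPKM. These genes were singled out after their values were seen, and their relation to the low Lmna level of TRAIL+ cells was not tested.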
